A study of Schizosaccharomyces pombe with 127 samples.

Results

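Deletion strains of the TOR-linked AGC kinase genes gad8, sck2 and psk1 of fission yeast (Schizosaccharomyces pombe) were examined on the 6 arrays whose titles carry the strain tokens CC24B10_07 (the locus of gad8), sck2 and psk1, out of 127 arrays in all. Each strain was sampled once in log phase in minimal medium with nitrogen (0 min) and once after 60 min of nitrogen starvation, so a strain has 1 array per time and no replicate. They were set against the other deletion strains of the series, 60 at 0 min and 59 at 60 min, most of them lacking another kinase and a few lacking atf1, cyr1, cgs1 or rst2. All cells were grown at 30 °C in the labelled protocol, and RNA of each strain (Cy5) was hybridised with RNA of a wild-type pool (Cy3) on 2-colour arrays. The labels describe the genotype of every deletion strain as kinase deletion and give neither the parent strain nor its mating type, and each deletion is represented by 1 culture per time, so a clone and its deletion cannot be told apart.

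TOR kinases couple growth to nutrients through 2 complexes. In fission yeast, TOR complex 1 (TORC1, built on Tor2) promotes growth while nitrogen is present, and TORC2 (built on Tor1) is needed for survival of stress, for arrest in G1 and for mating. Gad8 is the AGC kinase that TORC2 activates, and cells without it are known for poor mating and stress sensitivity. Sck2 and Psk1 lie on the TORC1 side: Sck2 is related to budding yeast Sch9, and Psk1 is an S6 kinase that phosphorylates ribosomal protein S6 (encoded by rps601 and rps602).

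A level below is the log2 of the ratio of strain to pool, centred on the array median and averaged over the 2 probes of a gene. A deviation is the level of a strain minus the mean level of the other deletion strains at the same time, and a rank counts from the lowest of the 63 deletion strains at 0 min or of the 62 at 60 min and in the change (60 minus 0 min). The SD over probes of the gad8, sck2 and psk1 arrays was between 0.26 and 0.43 at 0 min and between 0.89 and 1.05 at 60 min. These values lay inside the ranges of the other deletion strains, 0.22 to 0.82 (median 0.35) and 0.68 to 1.21 (median 0.99). At 0 min gad8 (0.43) and sck2 (0.42) lay above that median and psk1 (0.26) below it. The probe pairs of a gene correlated across genes at 0.52 to 0.65 on the 0 min arrays of the 3 strains and at 0.81 to 0.87 on their 60 min arrays. The medians elsewhere were 0.62 and 0.84, and sck2 lay below both (0.52 and 0.81). Where a single strain is described no test is possible, and its rank among the strains stands in place of one.

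Each deletion could be seen in the array data of its own strain. The gad8 transcript had a level of -3.76 at 0 min and -1.72 at 60 min in the gad8 strain. In the other deletion strains its lowest, median and highest levels were -0.39, 0.15 and 0.62 at 0 min, and 0.17, 0.76 and 1.33 at 60 min. The sck2 transcript had levels of -1.48 and -2.52 in the sck2 strain, against -0.75, -0.12 and 0.30 at 0 min and -0.71, -0.16 and 0.27 at 60 min elsewhere. The psk1 transcript had levels of -1.87 and -1.18 in the psk1 strain, against -0.99, -0.25 and 0.71 at 0 min and -0.39, 0.09 and 1.12 at 60 min elsewhere. On all 6 arrays the own-strain value lay below every other strain (rank 1), and both probes of each gene were low. Among the 10 measured genes that flank each locus in chromosome order, deviations ran from -0.61 to 0.43 at 0 min and from -0.50 to 0.17 at 60 min, so none of these neighbours was 2-fold lower. The psk1 transcript was also low in the sck2 strain, at -0.58 and -0.50 (ranks 8 and 2).

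**Figure D1:**
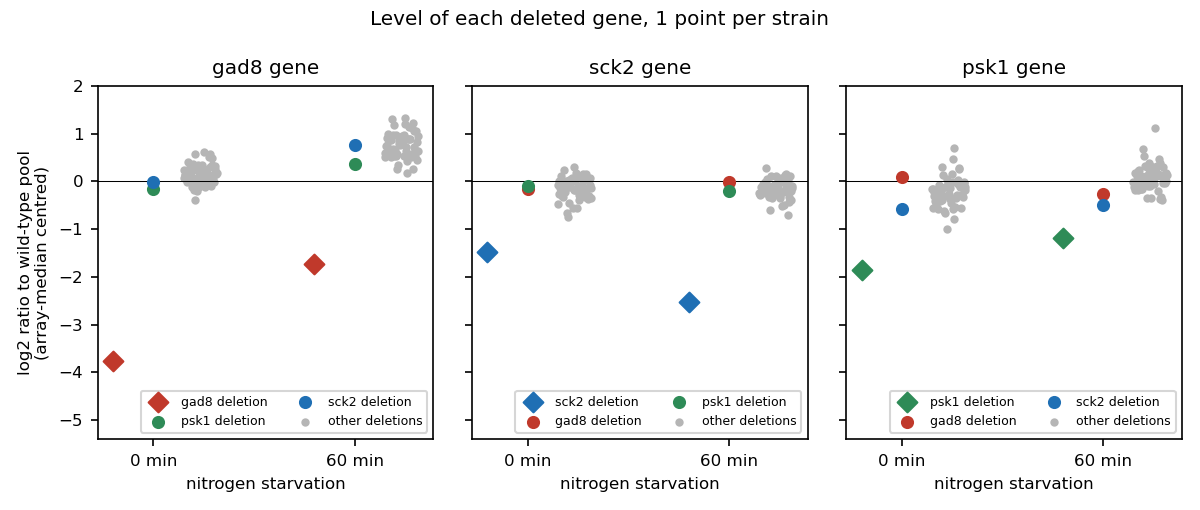
Levels (log2 ratio of strain to wild-type pool) of the gad8, sck2 and psk1 transcripts, 1 point per strain, at 0 and 60 min of nitrogen starvation. Diamonds are the strain that lacks the gene, coloured circles the other 2 strains described here, and grey points the other deletions. Each diamond lies below every grey point of its time.

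As a group of 3, the strains had no called difference from the other deletions beside the loss of gad8. The limma fit of the 3 strains against the others called 1 of 4929 features at 0 min (0.0203%), 0 at 60 min (0%), 1 in the mean of both times (0.0203%) and 0 in the change (0%), at a Benjamini-Hochberg adjusted p under 0.05. The only feature called was gad8 itself, whose 3-strain difference was -1.45 at 0 min (SE 0.25, adjusted p = 0.000889) and -1.20 in the mean of both times (SE 0.21, adjusted p = 0.00134), a difference that came from the gad8 strain. Without that strain the difference of gad8 at 0 min was -0.22 and was not called. At an unadjusted p under 0.05 there were 52 features at 0 min, 74 at 60 min, 60 in the mean and 118 in the change. That is 1.05%, 1.50%, 1.22% and 2.39% of all features tested. The 95% interval of the 3-strain difference lay inside 2-fold in both directions for 98.7% of features at 0 min, 97.1% at 60 min and 96.3% in the change. On simulated data the same fit called between 90% and 98% of genes changed by 1 (log2) in all 3 strains, and between 32% and 70% of those changed by 0.5, with between 4 and 8 false calls. The simulation changed 50 genes of each size together, with independent noise. Its adjusted threshold was therefore less strict than that of the real fits with 1 or 0 calls. The recovery of a lone changed gene was not tested. The p-values measure the spread between strains, and the number of arrays limits the precision.

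At 60 min the deleted genes themselves came first in order of p and missed the threshold, gad8 (difference -0.95, adjusted p = 0.0617), psk1 (-0.73, adjusted p = 0.0617) and sck2 (-0.75, adjusted p = 0.192). The next were dbl3, mrpl15 and SPBC1773.16C. SPBC1773.16C had levels of 0.33 in gad8, 0.55 in sck2 and 0.21 in psk1 at 60 min, against 0.23, 0.92 and 1.58 (lowest, median and highest) in the other strains, a difference of -0.58 (SE 0.17, adjusted p = 0.723 in limma). The gene mrpl15, for a mitochondrial ribosomal protein, had levels of -0.12, 0.22 and -0.14 in gad8, sck2 and psk1 at 60 min, against -0.86, -0.54 and 0.09 elsewhere (difference 0.49, adjusted p = 0.723). The gene dbl3 had levels of -0.11, -0.16 and -0.20, against -0.73, -0.46 and 0.00 elsewhere (difference 0.30, adjusted p = 0.723). For these features at least 2 of the 3 strains lay inside the range of the others, with psk1 below it for SPBC1773.16C and sck2 above it for mrpl15. At 0 min nrl1 was next in order of p (difference -0.71, adjusted p = 0.228), with levels of -0.45 in gad8, -2.05 in sck2 and 0.00 in psk1, against -0.60, -0.14 and 0.63 elsewhere. It was below every other strain in sck2 alone. The sck2 value came from 1 probe of nrl1 with a deviation of -3.91, while the other probe deviated by 0.05.

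Besides the deleted gad8, no gene of the TOR lists was called in the 3 strains against the other deletions. Of the 23 measured genes of the TOR complexes and their regulators and the 13 measured other AGC kinases and TOR-linked effectors, none passed in any of the fits of the 3 strains against the other deletions. Over all 4929 features these fits called 0.0203% or 0%, so an absence of calls is not particular to these lists. The smallest limma p among them was that of npr3, a subunit of the GATOR complex that restrains TORC1, whose change was -0.22, -0.04 and -0.03 in gad8, sck2 and psk1, against -0.14, 0.18 and 0.66 elsewhere (difference -0.28, SE 0.11, unadjusted p = 0.0116). The gene sck1, for the kinase closest to Sck2, changed by 0.02, 0.00 and 0.29 in gad8, sck2 and psk1, against -0.13, 0.33 and 0.79 elsewhere (difference -0.24, unadjusted p = 0.0355). The TORC1 subunit gene tco89 had the largest deviations of the TOR complex list at both times. Its change was -1.38 in gad8, -0.97 in sck2 and 0.04 in psk1, against -1.39, -0.23 and 1.08 elsewhere (difference -0.55, unadjusted p = 0.0377). In the change 2 of 23 and 1 of 13 genes had an unadjusted limma p under 0.05, where 2.39% of all features did. The deviations of the TOR complex genes ran from -0.43 to 0.87 at 0 min and from -0.59 to 0.57 at 60 min over the 3 strains, so none reached 2-fold at either time. The kinase gene tor1 had levels of 0.17, 0.15 and 0.09 at 0 min and 0.40, 0.64 and 0.35 at 60 min in gad8, sck2 and psk1, near the medians of 0.03 and 0.45 of the other strains. The gene tor2 had levels of -0.08, -0.29 and -0.15 at 0 min and 0.12, 0.13 and 0.32 at 60 min, near the medians of -0.15 and 0.34 elsewhere.

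The response to 60 min without nitrogen was of usual size in the 3 strains. The limma fit of the paired change within the 3 strains called 782 features (15.9%) at an adjusted p under 0.05 and at least 2-fold, 355 higher (7.2%) and 427 lower (8.66%) at 60 min. The largest rises were those of urg1 and urg2, genes of uracil use, by 6.34 and 5.92, of xan1, a xanthine dioxygenase, by 5.32, of uro1 by 4.97, and of isp6, a vacuolar protease, by 4.58 (adjusted p between 6.35e-07 and 5.44e-06). The largest falls were those of ribosomal protein genes, with rpl35A01 at -4.12, rps2201 at -4.02, rpp101 at -3.88 and rps602 at -3.84, and of an unnamed probe pair (pJ5566_100079) at -4.04. Of the gene lists, 123 of 126 genes with ribosomal protein symbols, 35 of 62 ribosome biogenesis genes and 14 of 18 translation factors fell. All 8 genes of uracil and purine use, 8 of 9 core histones, 12 of 20 stress genes and 8 of 21 autophagy genes rose. Of the TOR complex genes 2 of 23 rose, gtr2 by 1.28 (SE 0.15, adjusted p = 0.000334) and tsc1 by 1.20 (SE 0.17, adjusted p = 0.00089), and of the effector list pka1 rose by 1.54 and rps601 and rps602 fell by 3.36 and 3.84. Over 804 responding genes, each strain's change was regressed on the average response of the remaining deletions. The slope was 0.99 in gad8 (rank 26), 1.07 in sck2 (rank 44) and 0.95 in psk1 (rank 18), against 0.65, 1.01 and 1.21 (lowest, median and highest) in the other strains.

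Singly, the strains differed in how far they stood from the others. The gad8 strain deviated at least 2-fold in 58 features at 0 min (1.18%), 36 at 60 min (0.73%) and 105 in the change (2.13%). The sck2 strain did so in 19 (0.385%), 40 (0.812%) and 27 (0.548%). The psk1 strain did so in 6 (0.122%), 10 (0.203%) and 19 (0.385%). The median counts in the other strains were 15, 36 and 50. At 0 min the gad8 strain had 46 features higher (0.933%) and 12 lower (0.243%), and its change was weighted the other way, with 23 higher (0.467%) and 82 lower (1.66%). The mean over all its features was also the highest of the 63 strains at 0 min, by 0.06 above the others. Deviations at both times correlated across genes at 0.16 in gad8, 0.51 in sck2 and 0.36 in psk1 (median of the others 0.33), which is a description over 4929 features that share arrays. Features past 2-fold at both times in one direction numbered 4 in gad8 (0.0812%), 8 in sck2 (0.162%) and 2 in psk1 (0.0406%), the deleted gene included.

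**Figure D2:**
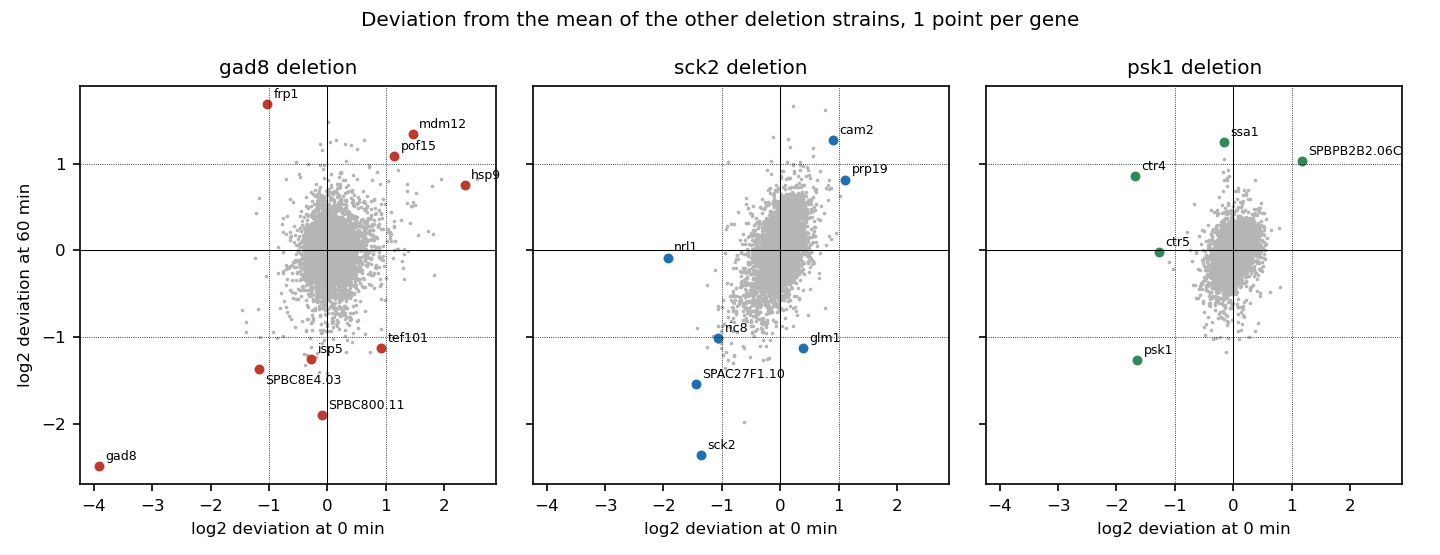
Log2 deviation at 0 min (x axis) and at 60 min (y axis) of every feature in each of the 3 strains, with named genes in colour and dotted lines at 2-fold. Apart from the deleted gene, gad8 had few features far from 0 at both times, sck2 had a cloud tilted along the diagonal, and psk1 had the narrowest cloud.

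In the gad8 strain the ribosomal protein genes, which all strains repress on starvation, had the most negative mean change of any deletion strain. The 126 genes were taken by symbol (rpl, rps or rpp and a number) without a check of function. They include rpp1 and rpp40, which may not encode ribosomal proteins. The mean level of the 126 genes was 0.20 above the other strains at 0 min (rank 50) and 0.44 below them at 60 min (rank 4). The mean change was -3.28, against -3.05, -2.69 and -1.65 (lowest, median and highest) in the other strains, the lowest of the 62. Of the 126 members, 113 lay below the others at 60 min, where 51.8% of all features did. In the change 121 lay below, where 55.1% of all features did. A 2-fold lower change was found in 16 members, where 1.66% of all features had one. In 52 members the change in gad8 was the lowest of all 62 strains, which it was in 4.34% of all features. The gene rpl1602 had levels of 1.47 at 0 min and -3.58 at 60 min in gad8, against -0.53, 0.57 and 1.70 at 0 min and -3.48, -2.68 and -1.23 at 60 min elsewhere. At 60 min it was below every other strain. The substrate genes of S6 kinase, rps601 and rps602, changed by -3.97 and -4.50 in gad8, below the lowest of the other strains (-3.75 and -4.35). The gene rpl1603, a near-identical copy of rpl1602, differed in the opposite direction, with a change 1.23 above the others, and cross-hybridisation between the copies was not tested. The size of this result moved with the scaling. Quantile normalization gave the arrays of both times the same distribution. The median SD over probes of the other deletions was 0.35 at 0 min and 0.99 at 60 min under median centring. It therefore tends to widen the 0 min arrays and to narrow the 60 min arrays. Changes under it, here and below, mix this rescaling with the strain difference. With quantile normalization the list lay 0.19 below the others in the change (rank 19) and 0.13 below them at 60 min (rank 1).

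The elongation factor genes tef101, tef102 and tef103 had low changes in gad8. The gene tef101, for elongation factor eEF1A, had levels of 1.08 at 0 min and -2.18 at 60 min in gad8, against -0.21, 0.08 and 1.04 at 0 min and -1.98, -1.10 and -0.18 at 60 min elsewhere. It was thus the highest of all strains before starvation and the lowest after it, a change 2.04 below the others. Its near-identical copies tef102 and tef103 had changes 1.47 and 1.48 below the others, and probes may not tell the 3 copies apart. Over the 18 translation factors the mean change lay 0.35 below the others (rank 2), a mean that includes these 3 copies, and the median member deviation was -0.19. Of the members, 12 lay below, where 55.1% of all features did, and with quantile normalization the list lay 0.20 below (rank 12). Ribosome biogenesis genes lay 0.28 above the others at 60 min in gad8 (rank 57), with 49 of 62 members above where 48.2% of all features were above, and 0.09 above with quantile normalization (rank 57).

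Mating genes were high in the gad8 strain while nitrogen was still present. The mean of the 25 mating and pheromone genes lay 0.65 above the other strains at 0 min (level 0.69, against -1.20, 0.06 and 1.04 elsewhere, rank 62 of 63). Of the 25, 22 lay above the others, where 53.9% of all features did, and 7 did so by at least 2-fold, where 0.933% of all features did. The gene ste11, for the transcription factor that starts sexual differentiation, had a level of 1.58 at 0 min, against -3.10, 0.34 and 1.89 elsewhere (rank 62). The gene mei2, for an RNA-binding protein that starts meiosis, had a level of 1.19, against -1.82, 0.15 and 1.67 elsewhere (rank 62). The gene spk1, for the kinase of the pheromone response, had a level of 1.57, against -1.61, 0.11 and 2.33 elsewhere (rank 62). These levels were near the top of the strains but overlapped them.

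The genes of the 2 mating types differed within this list. The genes that M cells use and that are given here lay above the others at 0 min in gad8, with deviations of 1.95 for mfm1, 0.72 for mfm2 and 1.47 for mfm3 (precursors of the M-factor pheromone), 0.65 for mam1 (its exporter) and 0.64 for mam2 (the receptor for P-factor). Genes that P cells use lay close to the others, with -0.06 for map1, 0.09 for map2 (P-factor) and -0.02 for map3 (the receptor for M-factor). Probes may not tell the 3 mfm genes apart. The mating type of the strains is not given, and its part in these values was not tested.

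During starvation the mating list had its lowest mean change in gad8. Its mean change was -0.13, against -0.05, 0.19 and 1.01 elsewhere (rank 1), and 21 of 25 members lay below the others, where 55.1% of all features did. At 60 min the list was 0.27 above the other strains (rank 55). The gene rgs1, a regulator of G-protein signalling, had levels of 1.11 and then 0.25 in gad8, against medians of -0.15 and 0.20 elsewhere.

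**Figure D3:**
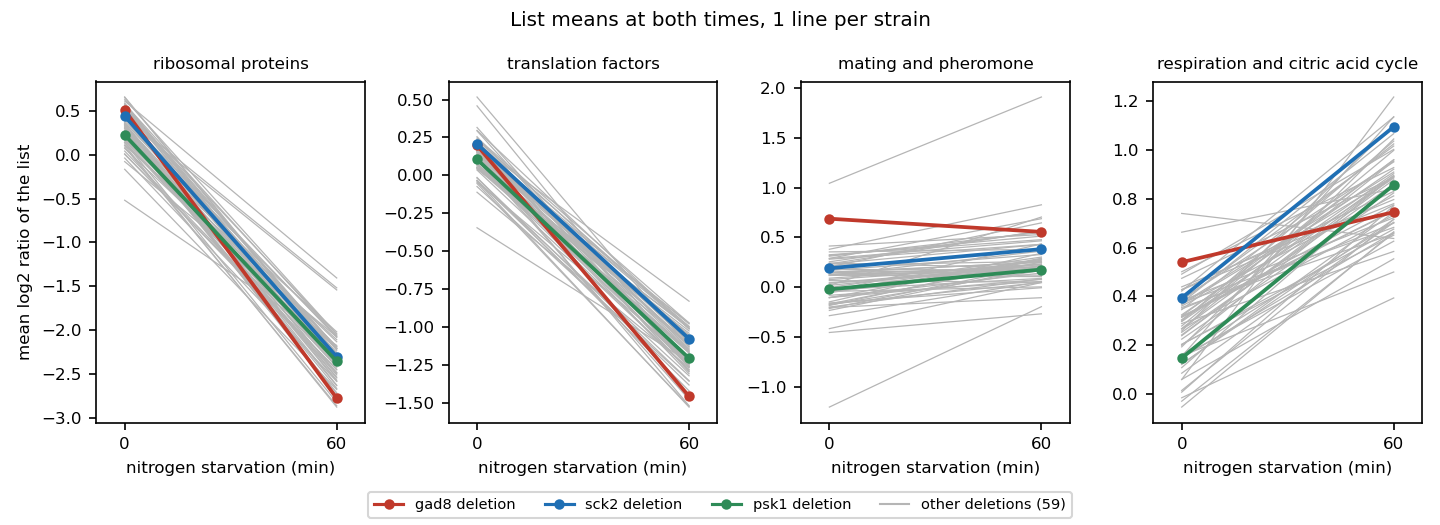
Mean log2 ratio of 4 gene lists at 0 and 60 min of nitrogen starvation, 1 line per strain, with gad8, sck2 and psk1 coloured and the 59 other deletions in grey. The gad8 line of ribosomal proteins has a change of -3.28, the steepest of the strains, and its mating line starts at 0.69 and does not go up.

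Further gene lists stood high at the start or low after starvation in gad8. Genes of respiration and the citric acid cycle lay 0.27 above the others at 0 min (rank 61 of 63), and their change lay 0.35 below the others (rank 3 of 62), with 33 of 35 members below where 55.1% of all features were. With quantile normalization the list lay 0.19 above at 0 min (rank 52), and its change lay 0.14 below (rank 15). The cytochrome c gene cyc1 had levels of 1.13 and 0.00 in gad8, against medians of 0.50 and 0.44 elsewhere. Genes for amino acid and peptide transport lay 0.42 below the others at 60 min (rank 4), with 9 of 11 members below where 51.8% of all features were, and 0.18 below with quantile normalization (rank 5). The amino acid permease gene isp5 had a level of 2.53 in gad8 at 60 min, against 2.59, 3.75 and 5.10 elsewhere, the lowest of the 62 strains. Autophagy genes lay 0.27 below the others at 60 min (rank 5), with 18 of 21 members below where 51.8% of all features were, and 0.08 below with quantile normalization (rank 8). Genes of the TOR complexes lay 0.10 above the others at 0 min (rank 63) and 0.16 below them in the change (rank 1). This shift was small. Centring on the array mean made it 0.05 above at 0 min (rank 54) and 0.08 below in the change (rank 7), and quantile normalization made it 0.07 above (rank 52) and 0.06 below (rank 11).

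Single genes stood out in gad8 in both directions. The gene SPBC8E4.03 was low at both times, with levels of -1.16 and 0.20, against -1.21, 0.03 and 0.67 at 0 min and 0.76, 1.58 and 2.55 at 60 min elsewhere. At 60 min it lay below every other strain, and both probes deviated by more than 1 in size at both times. The F-box protein gene pof15 (deviations 1.15 and 1.08) and mdm12 (1.46 and 1.34), a mitochondrial tethering protein gene that varied widely among strains, were high at both times. The largest higher change was that of frp1, a ferric-chelate reductase of iron uptake, with levels of -1.70 and -0.59 in gad8, against -3.05, -0.46 and 0.47 at 0 min and -3.63, -2.32 and -0.61 at 60 min elsewhere. It was low before starvation and the highest of all strains after it. The iron uptake genes str3 and fio1 had changes 1.36 and 1.24 above the others. The mean of the 11 iron uptake genes lay 0.42 above the others in the change (rank 60) through these 3 members, which were 2-fold higher where 0.467% of all features were. The median member deviation was 0.00, and 6 members lay above where 44.9% of all features did. The other higher changes were dgc1 (1.77), cbm1 (1.66), SPCC794.04C (1.56) and mib1 (1.55). The lower changes besides tef101 and rpl1602 were gpd3, a glyceraldehyde-3-phosphate dehydrogenase gene (-2.11), mug147 (-1.90) and SPBC800.11 (-1.81). Among stress genes hsp9, for a small heat shock protein, had a level of 2.50 at 0 min in gad8, the highest of the 63 strains, against -5.16, 0.34 and 2.23 elsewhere.

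**Figure D4:**
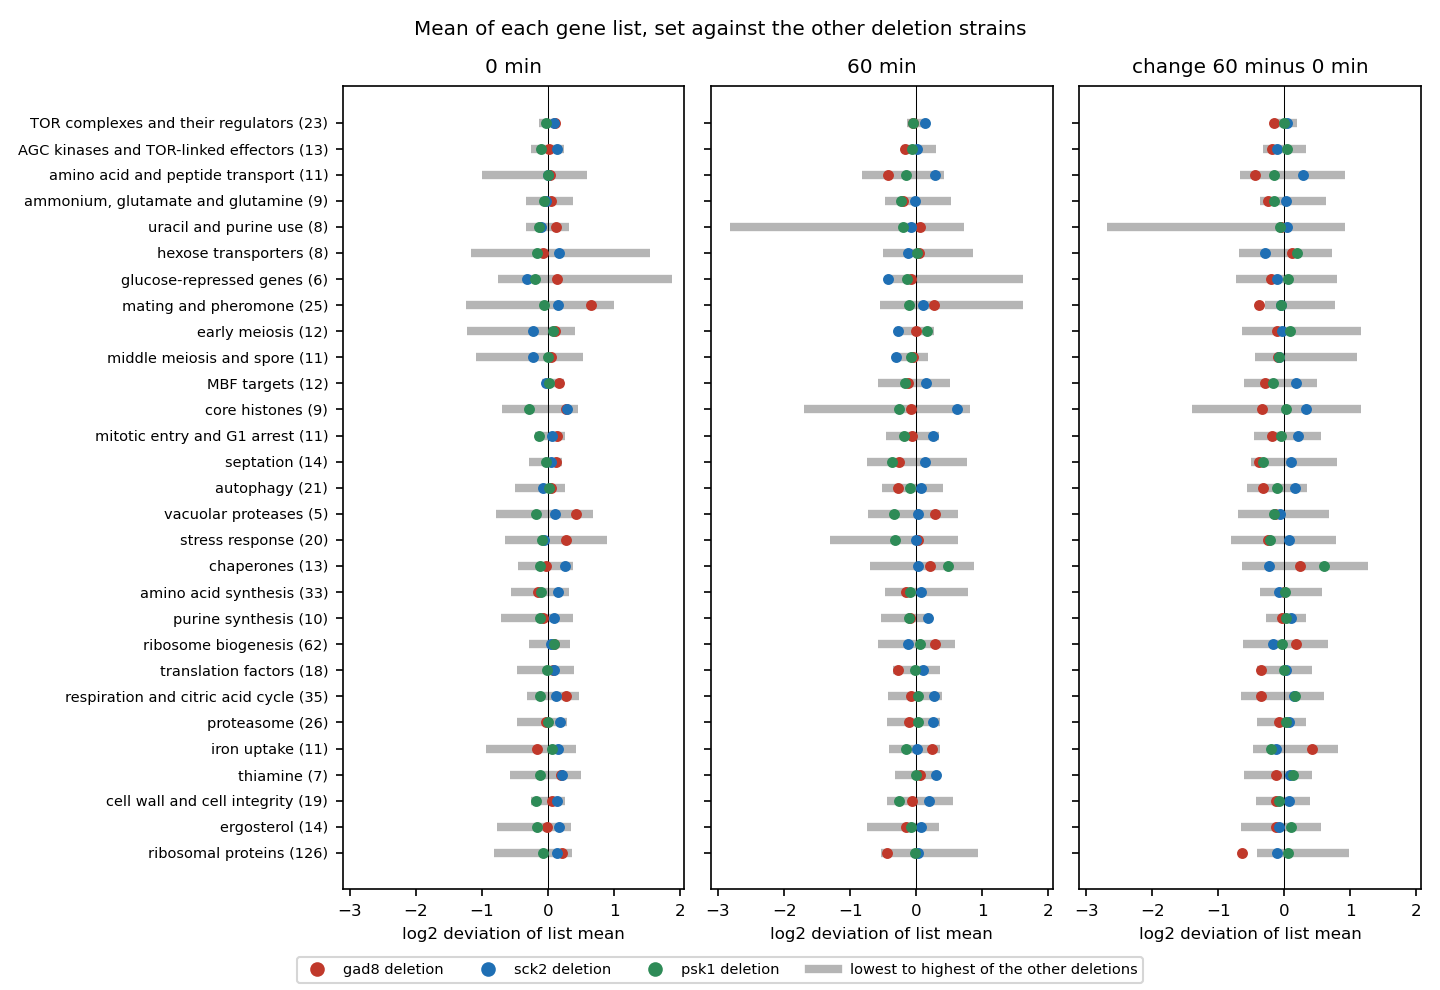
Log2 deviation of the mean of 29 gene lists with at least 5 measured genes (number of genes in parentheses) in gad8, sck2 and psk1, at 0 min, at 60 min and in the change. Grey bars run from the lowest to the highest of the other deletion strains. The gad8 points for ribosomal proteins, mating genes and TOR complex genes leave the bar in the change. The gad8 point for TOR complex genes also leaves it at 0 min. Most points of the other 2 strains lie inside the bars.

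In the sck2 strain the lists of meiotic and glucose-repressed genes lay low at 60 min. The mean of 11 middle meiosis and spore genes was -0.27 at 60 min, against -0.23, 0.03 and 0.22 elsewhere, the lowest of the 62 strains, with 9 of 11 below the others where 47% of all features were below. With quantile normalization its deviation was -0.19 and not -0.31 (rank 1 in both). The gene mei4, for the forkhead transcription factor of middle meiosis, had levels of -1.40 and -1.12 in sck2, against -3.01, -0.16 and 0.60 at 0 min and -0.86, -0.08 and 0.57 at 60 min elsewhere. It was below every other strain at 60 min. The gene meu10 had a level of -0.94 at 60 min, against -0.70, -0.07 and 0.69 elsewhere. The 12 early meiosis genes lay 0.23 below the others at 0 min (rank 6), with 9 below where 48.1% of all features were. With quantile normalization they lay 0.27 below at 0 min (rank 14). At 60 min they lay 0.27 below (rank 2), or 0.17 below with quantile normalization (rank 2). The gene rec10, of meiotic recombination, was at -0.78 at 60 min, against -0.52, -0.09 and 0.68 elsewhere. None of the 12 early or 11 middle meiosis genes was called in the starvation change of the 3 strains, where 15.9% of all features were.

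The 6 glucose-repressed genes lay 0.43 below the others at 60 min in sck2, the lowest of the 62 strains by a margin of less than 0.01 (mean 0.0942, against 0.0943 for the next). Of the 6 members, 5 lay below the others, where 47% of all features did. The invertase gene inv1 had levels of -0.59 and -0.54, against medians of -0.13 and 0.19 elsewhere. The glycerol dehydrogenase gene gld1 had levels of -0.12 and -0.50, against -0.42, 0.26 and 2.82 elsewhere at 60 min. The fructose-1,6-bisphosphatase gene fbp1 had levels of -0.88 and 0.59, against medians of -0.06 and 0.86. The hexose transporter gene ght6 was the highest of all strains at 0 min (0.67) and at rank 3 at 60 min (-0.69), a change 1.43 below the others.

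Cell-cycle, histone and proteasome lists were on the high side in sck2 at 60 min. All 11 genes of mitotic entry and G1 arrest lay above the others, where 53% of all features did, by 0.26 in the mean (rank 59). Against the same 53%, the proteasome lay 0.25 above (rank 59, 23 of 26 members above) and core histones 0.62 above (rank 58, 9 of 9 members above). With quantile normalization these lists lay 0.11 (rank 56), 0.10 (rank 48) and 0.27 (rank 54) above. The TOR complex list lay 0.13 above (rank 61), or 0.05 above with quantile normalization (rank 58), with tsc1, a gene of the complex that restrains Rheb, at 1.60 against 0.17, 1.06 and 1.41 elsewhere, the highest of the 62 strains. Genes for amino acid transport had a change 0.28 above the others (rank 53), with 9 of 11 members above where 53.6% of all features were, and 0.14 above with quantile normalization (rank 44). Ribosomal proteins were at ranks 47 and 37 at 0 and 60 min and 29 in the change.

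Several genes were low in sck2 at both times. They were SPAC27F1.10 (deviations -1.45 and -1.53), SPAC1142.09 (-1.16 and -1.38), mug24 (-1.25 and -1.12), gti1 (-1.01 and -1.12), rsv1, a zinc-finger protein gene (-1.02 and -1.07), ric8 (-1.06 and -1.01) and an unnamed probe pair (pJ5566_101178, -1.06 and -1.05). The gene ric8, whose relatives in animals act on G-protein alpha subunits, had levels of -1.20 and -0.79, against -1.13, -0.04 and 0.64 at 0 min and -0.79, 0.28 and 0.96 at 60 min elsewhere. It was the lowest of all strains at both times, by a narrow margin. In the change the lower genes were glm1 (-1.51), ght6, SPAC27F1.05C (-1.35), SPAC212.02 (-1.22) and gst2, a glutathione S-transferase gene (-1.07). The higher ones were dgc1 (1.92), nrl1 (1.84, resting on the 1 low probe at 0 min), an unnamed probe pair (c977_100530, 1.44), cdd1, a cytidine deaminase gene (1.43), and mfs1 (1.20).

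A stretch of neighbouring genes on chromosome I was high in the sck2 strain at both times. This stretch was found after the values were seen. Beside sck2, the only features past 3 SD of the other strains at both times were cam2, prp19 and rrn5, and these lie within 9 measured genes that follow each other in the gene order of the current annotation: rrn5, rrp17, prp19, srb6, SPAC29A4.06C, cam2, cbf5, mrps9 and SPAC29A4.02C. Their functions are mixed, including transcription by RNA polymerase I (rrn5), splicing (prp19), a calmodulin-like protein (cam2), pseudouridine synthesis in ribosomal RNA (cbf5) and the mitochondrial ribosome (mrps9). All 9 lay above the mean of the other strains at both times. Their deviations ran from 0.26 to 1.11 at 0 min and from 0.09 to 1.27 at 60 min. Not all were near the top, with SPAC29A4.06C at rank 50 at 0 min and srb6 at rank 43 at 60 min. The gene cam2 deviated by 0.90 and 1.27, prp19 by 1.11 and 0.82, and rrn5 by 0.82 and 0.75, and both probes of each were high at both times. The median level of the 9 genes was 0.82 in sck2 at 0 min, against -0.34, -0.03 and 0.19 in the other strains, and 0.52 at 60 min, against -0.45, -0.21 and -0.03. The sck2 value was the highest of all strains at both times, a rank favoured by the choice of the stretch for its high sck2 values. The gad8 and psk1 values lay inside the range of the others. Among the 30 genes that flank the stretch the median deviation was 0.16 at 0 min and 0.02 at 60 min, although the adjacent genes aif1, lrs1 and hgh1 were also high (0.57, 1.03 and 0.75 at 0 min). Over all stretches of 9 genes in all strains, the highest median deviation of a strain was 0.77 in sck2 (rank 61 of 62), and it ran from 0.20 to 0.97 with a median of 0.33 in the other strains. The arrays measured RNA only, and the number of DNA copies of this stretch was not tested.

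**Figure D5:**
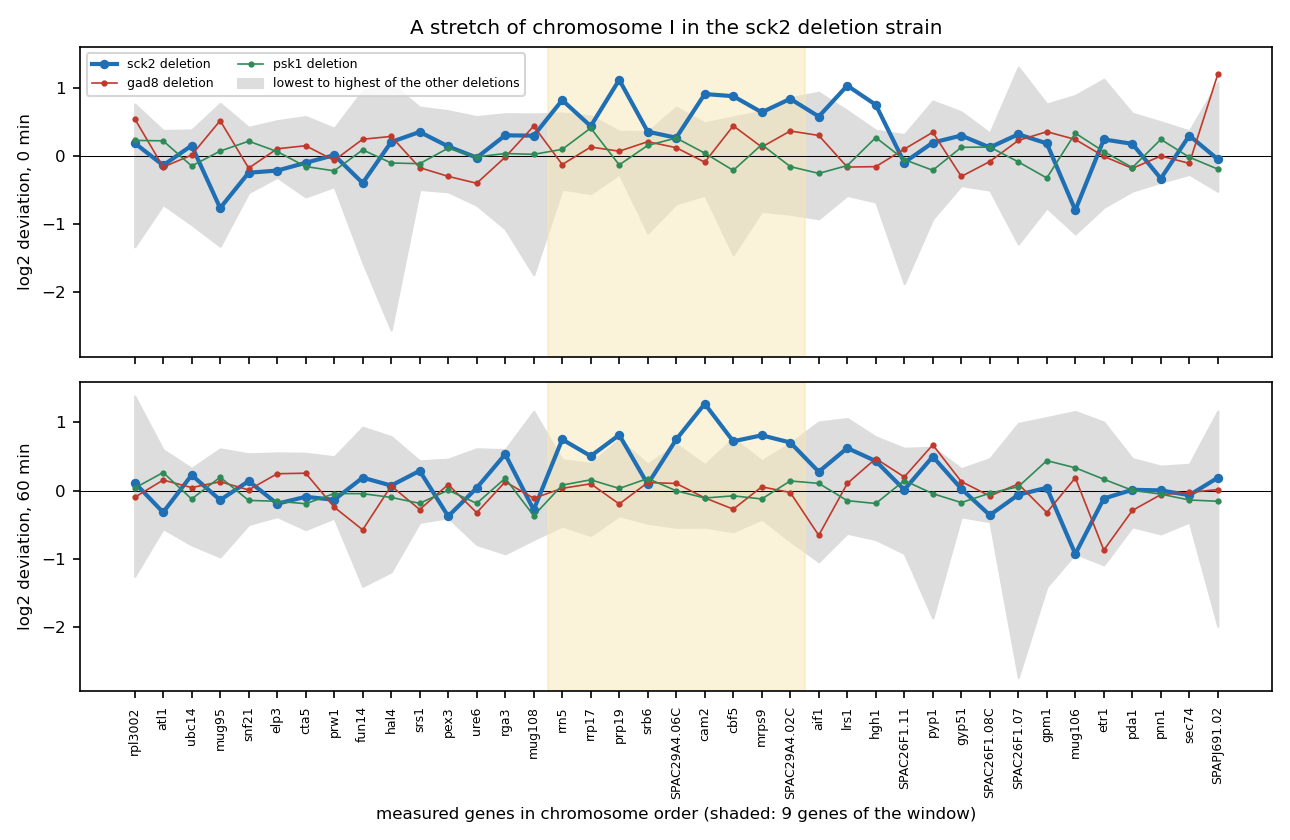
Log2 deviation at 0 min (top) and 60 min (bottom) of 39 measured genes of chromosome I in their chromosome order, in sck2 (thick line), gad8 and psk1, with the range of the other deletion strains in grey and the stretch of 9 genes shaded. The sck2 line lies above 0 at every shaded gene at both times.

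The psk1 strain had the fewest features at least 2-fold apart of the 3 strains under median centring. With quantile normalization the counts in the change were 200 in gad8, 75 in sck2 and 176 in psk1, so that sck2 had the fewest. That scaling gives the 0 and 60 min arrays the same distribution, so a 0 min array of small spread is stretched most. The SD over probes at 0 min was 0.26 in psk1, 0.43 in gad8 and 0.42 in sck2. The part of this rescaling in the counts was not tested. Under median centring the psk1 count ranked 13.5 of 62 at 0 min and 10.5 at 60 min. Besides psk1 itself, SPBPB2B2.06C alone was past 2-fold at both times (levels 1.59 and 2.37, against -2.03, 0.49 and 3.61 at 0 min and -2.35, 1.71 and 2.61 at 60 min elsewhere), inside a wide range. The clearest values were those of copper transport at 0 min. The gene ctr4, for a subunit of the copper transporter, had levels of -1.52 and -1.62 in psk1, against -2.13, 0.23 and 1.09 at 0 min and -3.75, -2.50 and -0.84 at 60 min elsewhere. It was low before starvation (rank 3) and at a like level after it, a change 2.54 above the others. Its partner gene ctr5 had levels of -1.17 and -1.18, against -2.06, 0.17 and 0.70 at 0 min and -2.21, -1.15 and -0.42 at 60 min elsewhere, ranks 2 and 27. Both probes of ctr4 and of ctr5 were low at 0 min. The change of ctr5 was not particular to psk1. It lay 1.24 above the others in psk1, 0.90 above in gad8 and 0.05 above in sck2.

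Chaperone genes had a less negative change in psk1, and genes of the septum and cell wall were lower at 60 min. All 13 chaperone genes had a change above that of the others, where 45.2% of all features did, by 0.60 in the mean (rank 57). The Hsp70 genes ssa1 and ssa2 had levels of -0.51 and -0.88 at 60 min in psk1, against medians of -1.75 and -2.05 elsewhere, and changes 1.41 and 1.39 above the others, though probes may not tell these close copies apart. The gene hsp90 had a change 1.02 above the others, and met17, for homocysteine synthase, 1.21 above. All 14 septation genes lay below the others at 60 min, where 53.3% of all features did, by 0.36 in the mean (rank 3), or by 0.19 with quantile normalization (rank 7). Low septation genes were not particular to psk1. At 60 min slp1 deviated by -1.03 in gad8 and -0.55 in psk1, and spo12 by -0.66 and -0.50. Other members, such as cfh4 (0.20), lay above the others in gad8. In psk1 adg3 had a level of 1.23, against 0.88, 2.13 and 2.81 elsewhere, and adg1 a level of 0.28, against -0.86, 0.84 and 2.52. Of 19 cell wall and cell integrity genes 15 lay below (rank 4), against the same 53.3%, with the glucanase gene exg1 at 0.90 against -0.00, 1.93 and 4.03 elsewhere. Of 20 stress genes 18 lay below, by 0.32 in the mean (rank 11), or by 0.07 with quantile normalization (rank 18). All of these psk1 values lay inside the range of the other strains. The lower changes of single genes were those of SPAC11D3.18C (-1.29), SPAC11D3.15 (-1.26), cdd1 (-1.25), dgc1 (-1.22) and SPAC27F1.05C (-1.12). The S6 genes rps601 and rps602 changed by -2.87 and -3.06 in psk1, against medians of -3.21 and -3.50 elsewhere.

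Some genes deviated in opposite directions among these strains. The gene dgc1 had changes above the others in gad8 (1.77) and sck2 (1.92) and below them in psk1 (-1.22), and its deviations at 60 min were 0.61, 1.01 and -0.43. The gene cdd1 had levels of 3.76 in gad8, 3.82 in sck2 and 1.52 in psk1 at 60 min, against -0.17, 2.74 and 4.28 elsewhere. Both genes vary widely among all strains, and the 3 strains lay inside that range. Over 31 gene lists and 3 outcomes, 93 values in all, gad8 was the lowest or the highest of the strains 4 times, sck2 2 times and psk1 0 times, and the mean over all strains was 2.98.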

How the data were processed

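The deposited table holds linear ratios of Cy5 (strain) to Cy3 (wild-type pool) for 9858 probes on 127 arrays, with the dyes per the labels. How the authors scaled and background-corrected the ratios is not stated here, since the sources used do not give it, and signal over background was not used here, so no depth can be stated. Array medians of the ratio were between 0.932 and 1.093. Exact zeros (6 values) were set to missing. The log2 ratio was centred on the array median and averaged over the probes of a gene, giving 4929 features, of which 4816 carried a gene name and 4791 matched the gene table of assembly ASM294v3, used for names and gene order only. Groups came from the array titles.

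The fits used limma 3.58.1 in R 4.3.3 (lmFit, eBayes) with Benjamini-Hochberg adjustment over all features. They set the 3 strains against the other deletions at 0 min, at 60 min, in the mean of both times and in the change, and paired the times by strain for the starvation change. They were tested on simulated data with 50 changed genes of each size. Descriptions used Python 3.11.15, numpy 2.4.6 and pandas 2.3.3. Replicate numbers 1, 2 and 3 name gad8, psk1 and sck2.

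The members, gene lists and tests were chosen with earlier results of these data known. Genes were named by size: up to 10 per direction of those called in a fit (or those of smallest p), up to 8 past 2-fold at both times and 5 in the change for each strain, and genes of the TOR lists. Other genes, including those given as examples of a list within 1 strain, npr3, sck1, hsp9, isp5 and the chromosome I stretch, were picked with their values in view. The settings tried instead were other centring, normalization by quantiles over the arrays of both times, fits per probe and other fold limits. The choice of other strains and the pairing were also varied, and each strain was left out in turn. The list deviations under other centring were added after the data were seen. No sequences are printed.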

Additional observations from a re-analysis of the deposited data

How the results depend on the processing

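Leaving out each strain in turn gave 0 to 3 calls for the 3 strains at 0 min, 1 to 2 at 60 min, 1 to 2 in the mean of both times and 0 to 1 in the change (limma, adjusted p under 0.05). The calls that this added were the deleted genes, nrl1 without psk1 (-1.13 at 0 min, adjusted p = 0.000258, and 1.12 in the change) and prp19 without psk1. Both rested mainly on the sck2 strain. At 0 min nrl1 deviated by -1.93 in sck2, through 1 probe, and by -0.325 in gad8. The gene prp19, of the stretch chosen for high sck2 values, deviated by 1.11 in sck2 and 0.07 in gad8. Without gad8 the gad8 transcript was no longer called, and its difference was -0.22 at 0 min. Without the sck2 strain the sck2 difference turned to 0.0031 at 0 min, 0.0494 at 60 min and 0.0260 in the mean (ranges down to -0.6883, -1.2012 and -0.9296), and prp19 turned to -0.0346 at 0 min (up to 0.5896) and -0.0607 in the mean (up to 0.4543). Without gad8, SPAC11D3.01C turned to -0.1415 at 0 min (up to 1.3217 without sck2). At probe level the calls were 2 at 0 min, 1 at 60 min, 2 in the mean and 1680 for starvation. These fits tested probes (up to 9858) and not the 4929 features, so their counts are not on the same scale. At 60 min there was 1 call with quantile normalization, 2 against kinase deletions only and 1 with array numbers under 1200. The starvation fit pairs the times by strain. Without this replicate block it called 776 features and not 782, and the change between groups still had 0 calls.

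Counts at both times moved to 2, 13, 36 and 1 in gad8 with quantile normalization, at probe level, at 1.5-fold and at 3-fold, to 2, 37, 73 and 0 in sck2 in the same order, and to 0 and 0 in psk1 with quantile normalization and at 3-fold. Without strains whose 60 min label is in doubt they were 5 in sck2 and 1 in psk1, and psk1 also had 1 against kinase deletions only and with array numbers under 1200. Counts in the change moved to 200, 375, 596 and 13 in gad8, to 75, 170, 224 and 2 in sck2, and to 176, 67, 110 and 1 in psk1 under the same 4 settings. The single-strain counts therefore depend on the scaling and on the fold limit. Those at probe level count probes and not features, so they are not on the same scale. Each strain has 1 array per time, so no value of a single strain has a replicate.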
